A study of Mus musculus with 32 samples.

Results

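The 55 genes described here encode nuclear subunits of the respiratory chain and the ATP synthase, measured in the hippocampus of 16 mice. They were chosen by symbol alone, as the gene-level array features with 1 annotated symbol that named a subunit of complex I (Nduf a, b, c, s or v and a number), complex II (Sdha to Sdhd), complex III (Uqcr genes and Cyc1), complex IV (Cox4 to Cox8 subunits) or complex V (Atp5 genes). This gave 55 of 16755 gene-level features: 27 of complex I, 4 of complex II, 6 of complex III, 10 of complex IV and 8 of complex V. At the level of single exons the same genes held 328 of 188590 probe sets, from 1 to 19 per gene. A further 7 features that named a subunit together with another gene (Ndufa10, Ndufa11, Cox6c, Cox7a2l, Atp5c1, Atp5j and Atp5o) were left out by the rule and are given separately.

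The mice were 8 Sicd2-ISCL4 subcongenics (ISCL4 mice) and 8 FVB-like littermates, all male and 6 to 8 weeks old, with both hippocampi of a mouse pooled into 1 RNA sample and no seizure or other treatment recorded. The Sicd2 locus maps to chromosome 15 and affects how readily hippocampal cells die after seizures. A subcongenic line carries a shortened piece of such a locus on the host background. The labels give neither the donor strain nor the ends of the segment. Each mouse was hybridised to 1 exon array, and replicates 1 to 4 of both groups (array set A) carried a different array naming scheme from replicates 5 to 8 (array set B). What separates the array sets is not stated, and each holds 4 mice per group.

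Oxidative phosphorylation couples electron transfer to ATP synthesis in the inner mitochondrial membrane. Complex I takes electrons from NADH and complex II from succinate, ubiquinone carries them to complex III, cytochrome c to complex IV, and the proton gradient built by complexes I, III and IV drives the ATP synthase, complex V. Most subunits are nuclear genes scattered over the chromosomes and the rest are encoded by mitochondrial DNA. Neurons rely heavily on this pathway to restore ion gradients after firing. Nuclear respiratory factor 1 (NRF1), ETS-family factors such as GABPA (NRF2) and YY1 are known regulators of these genes.

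Of the 55 genes, 43 had a promoter window in the RefSeq table of build GRCm38.p6, spanning 250 bases before to 50 bases after a transcript start. A script searched both strands for an NRF1 motif (GCGCA, any base, then GCGC), an ETS motif (CCGGAAG) and a YY1 motif (AAGATGGCG), and no match overlapped a match of another motif. The NRF1 motif was found in 9 of the 43 genes (20.9%, against 5.19% of 27025 symbols), the ETS motif in 7 (16.3% against 9.93%) and the YY1 motif in 5 (11.6% against 1.64%). All 5 YY1 matches began 23 to 35 bases after the start. The 4 windows printed here, 5′ to 3′ on the gene's strand with the matches in capitals, show the NRF1 motif alone in the chromosome 15 gene Ndufa6, next to YY1 in Ndufs6, in 3 copies in Sdha and next to ETS in Cox6a1.
Ndufa6 (chr15:82354242-82354541, minus strand): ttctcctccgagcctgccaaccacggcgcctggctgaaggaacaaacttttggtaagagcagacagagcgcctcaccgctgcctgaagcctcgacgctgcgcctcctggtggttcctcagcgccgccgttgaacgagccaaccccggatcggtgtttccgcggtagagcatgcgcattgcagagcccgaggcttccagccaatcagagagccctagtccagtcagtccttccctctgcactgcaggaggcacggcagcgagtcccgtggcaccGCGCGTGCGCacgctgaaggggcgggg
Ndufs6 (chr13:73328433-73328732, minus strand): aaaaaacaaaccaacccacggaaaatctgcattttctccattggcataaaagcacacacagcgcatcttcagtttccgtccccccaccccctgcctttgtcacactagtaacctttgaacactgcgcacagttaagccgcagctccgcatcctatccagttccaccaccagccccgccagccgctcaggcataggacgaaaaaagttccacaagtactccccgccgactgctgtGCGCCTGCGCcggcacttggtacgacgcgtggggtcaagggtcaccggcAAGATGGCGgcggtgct
Sdha (chr13:74350191-74350490, minus strand): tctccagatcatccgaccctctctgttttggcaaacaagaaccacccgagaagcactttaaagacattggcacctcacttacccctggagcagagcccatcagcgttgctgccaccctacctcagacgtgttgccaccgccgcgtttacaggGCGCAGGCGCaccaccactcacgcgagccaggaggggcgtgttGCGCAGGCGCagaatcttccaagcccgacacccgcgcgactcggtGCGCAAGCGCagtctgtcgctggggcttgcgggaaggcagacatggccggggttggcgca
Cox6a1 (chr5:115348909-115349208, minus strand): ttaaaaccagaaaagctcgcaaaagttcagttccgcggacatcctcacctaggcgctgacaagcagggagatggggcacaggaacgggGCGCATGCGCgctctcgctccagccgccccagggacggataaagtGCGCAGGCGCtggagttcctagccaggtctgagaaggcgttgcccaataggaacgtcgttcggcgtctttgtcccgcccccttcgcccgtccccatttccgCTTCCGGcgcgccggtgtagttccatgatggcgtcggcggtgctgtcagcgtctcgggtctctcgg
A match describes the letters only. The 9 genes with an NRF1 match differed between the groups by -0.21 to 0.06 on the log2 scale, with a median of -0.025. The genes with a window but no NRF1 match had nearly the same median, -0.023.

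Most subunits were strongly measured and differed little between ISCL4 and FVB-like hippocampus. Only Ndufa2, a small accessory subunit of complex I, passed the test at gene level, and it was higher in ISCL4 mice. The test was limma on the log2 signals with array set as a covariate, and a subunit was called where p, corrected by Benjamini-Hochberg across the 16755 features, fell under 0.05. It called 1 of 55 subunits, and 0.292% of all features, of which 0.167% were higher in ISCL4 mice. Differences are ISCL4 minus FVB-like, in log2 units of signal, throughout.

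The other subunits differed by small amounts, and at gene level their lean towards lower values in ISCL4 mice did not hold after quantile normalization. As deposited, the difference was below 0 for 38 of 55 subunits and above 0 for 17, with a median of -0.04 and a range of -0.35 to 0.37. Over all features 47.9% lay below 0 and the median was 0.00. At an unadjusted p under 0.05 there were 9 lower subunits (all features: 6.89%) and 2 higher ones (all features: 7.51%), together 20% of the 55 against 14.4%. After median centring 38 subunits still lay below 0, with a median of -0.04 (all features: 48.5% below 0). After quantile normalization 28 subunits lay below 0 and 27 above, with a median of -0.01 (all features: 50.3% below 0). Without FVB-like replicate 7 the median was -0.02, with 35 below 0.

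Brightness moved with this lean. The subunits had a median signal of 9.37, at the 86.1 percentile of all features, and 20 of them lay in the brightest 10%. Among all features at or above the 75th percentile of signal, 60.4% lay below 0 with a median of -0.02, and among the 34 subunits that bright, 26 lay below 0 (76.5%) with a median of -0.05. After quantile normalization 17 of those 34 lay below 0. The part of brightness in the lean was not tested further.

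The 95% intervals, which are not adjusted for the number of features, bound the size of each subunit's difference. For 37 of the 54 uncalled subunits the 95% interval of the difference stayed within 1.2-fold in either direction. In the other uncalled subunits the interval passed 1.2-fold, as far as -0.64 in Cox7a2 and 0.64 in Ndufa12. Of the 55, 40 differed by less than 0.1. The standard error of a subunit's difference had a median of 0.0648 and ran from 0.0267 to 0.183. In no subunit did the 8 values of one group lie wholly apart from the 8 of the other, which 0.119% of all features did.

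**Figure D1:**
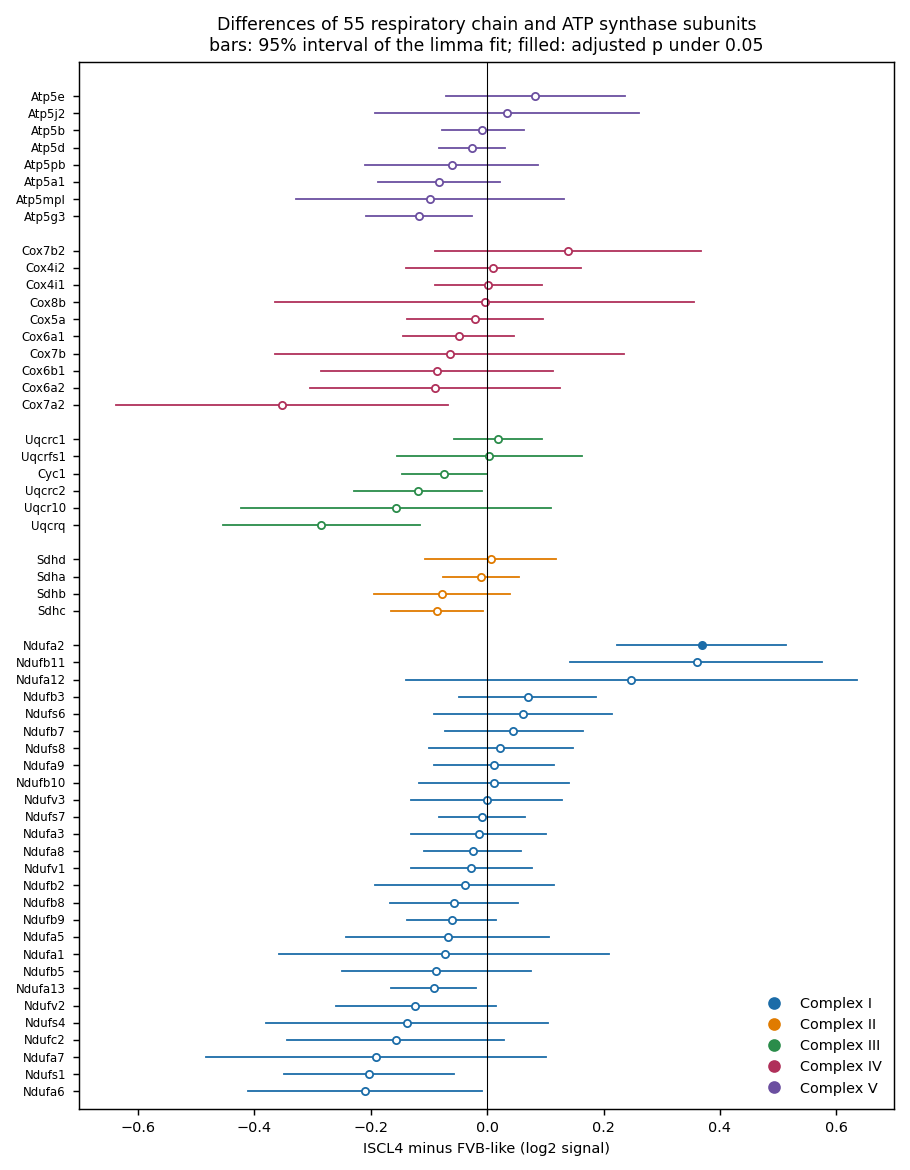
Difference between ISCL4 and FVB-like mice in log2 signal for each of the 55 subunits, grouped by respiratory complex, with the 95% interval of the limma fit as a bar. Ndufa2 is the only filled point (adjusted p under 0.05), and 38 of the 55 points lie to the left of 0, against 28 after quantile normalization.

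Complex I, the NADH dehydrogenase, held the called subunit. Ndufa2 (transcript cluster 6864702, chromosome 18) ran from 8.92 to 9.35 (median 9.21) in ISCL4 mice and from 8.63 to 8.94 (median 8.80) in FVB-like mice. In 7 of 8 ISCL4 mice it lay above every FVB-like mouse, and only ISCL4 replicate 3, at 8.92, fell just under FVB-like replicate 8, at 8.94. The means were 9.16 ± 0.16 and 8.79 ± 0.11 (SD, n = 8 mice each), a difference of 0.37 ± 0.068 (SE) or 1.29-fold (limma, adjusted p = 0.034). With the replicate number as a block the adjusted p was 0.0617, so the call was lost. The difference had the same sign in both array sets, 0.44 in set A and 0.30 in set B, but neither set alone gave a call (adjusted p = 0.253 and 0.492). Leaving out 1 mouse at a time kept the call in 7 of 16 fits, with adjusted p from 0.0213 to 0.0798. It was lost without FVB-like replicate 2, 3, 4, 5 or 7 and without ISCL4 replicate 2, 4, 7 or 8.

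The exon probe sets of Ndufa2 pointed the same way, on the same 16 arrays as the gene-level value. They were neither placed on the transcript nor checked for sequence variants. All 5 lay higher in ISCL4 mice, by 0.14 to 0.47, and 4 of them had an unadjusted p under 0.05. Probe set 5451403, the brightest, ran from 10.05 to 10.37 (median 10.24) in ISCL4 mice. In FVB-like mice it ran upwards from 9.64 (median 9.72), with all 8 values narrowly below 10.05. The share of all exon probe sets whose groups lie apart was not computed, so this gap has no background beside it. Probe set 5451403 differed by 0.44 ± 0.071 (SE) and was the 1 probe set of the 328 called (limma, adjusted p = 0.0494), where 0.0249% of all probe sets were called. Under the replicate block its adjusted p was 0.117, and of the 16 fits that left out 1 mouse it was called only in the fit without ISCL4 replicate 5. The median over the 5 probe sets differed by 0.45 ± 0.11 (SE), with a limma adjusted p of 0.166.

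Ndufa2 lies on chromosome 18, not on chromosome 15 where the Sicd2 locus maps. On chromosome 18, 5 of 362 single-symbol features were called higher and 9 lower in the same fit. On chromosome 15 it was 8 and 1 of 575, and over all 16755 features 28 and 21 (0.292% called). The reason for the denser calls on chromosome 18 was not tested. The other subunit gene of chromosome 18, Atp5a1, differed by -0.08.

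**Figure D2:**
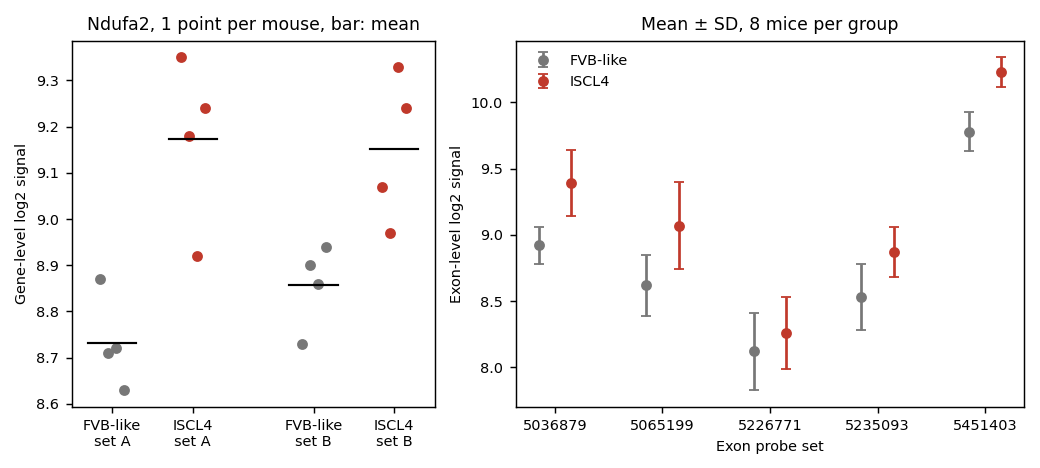
Left, log2 signal of Ndufa2 at gene level, 1 point per mouse by group and array set with the mean as a line, on an axis that does not start at 0. Right, mean ± SD over 8 mice per group for its 5 exon probe sets, where ISCL4 mice are higher by 0.14 to 0.47.

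The other 26 complex I subunits were not called. Over all 27 the median difference was -0.03, with 18 below 0 and 9 above, and after quantile normalization it was 0.00, with 13 below 0. Without ISCL4 replicate 1 or FVB-like replicate 4 the median was -0.04. Next to Ndufa2 the highest was Ndufb11, an X-linked accessory subunit, which ran from 6.59 to 7.73 (median 7.18) in ISCL4 mice and from 6.30 to 7.47 (median 6.65) in FVB-like mice. The groups overlapped over most of their range, and the difference was 0.36 ± 0.10 (SE, limma adjusted p = 0.145). Ndufb11 rested on 1 exon probe set and was 0.75 lower in array set B than in set A, and the spread within each group includes that shift.

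The gene-level feature annotated as Ndufa12, an accessory subunit of complex I, had different values from the exon probe set of that gene. At gene level it ran from 8.38 to 8.95 (median 8.62) in ISCL4 mice and from 7.62 to 9.06 (median 8.42) in FVB-like mice, a difference of 0.25 ± 0.18 (SE, adjusted p = 0.569). The ISCL4 values all lay inside the FVB-like range. The 1 exon probe set of Ndufa12, at a signal of 12.70, differed by 0.02 ± 0.058 (SE), while the gene-level feature had a mean signal of 8.51. Ndufa12 lies on chromosome 10, but this feature (transcript cluster 6934661) is numbered between 2 features of chromosome 5 genes, Mrps17 (6934631) and Mdh2 (6934942). Whether it measures Ndufa12 was not tested.

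The lowest difference in complex I was that of Ndufa6, an accessory subunit encoded on chromosome 15. It ran from 8.63 to 9.03 (median 8.76) in ISCL4 mice and from 8.66 to 9.38 (median 8.97) in FVB-like mice. The ranges overlapped over nearly the whole ISCL4 span, and the difference was -0.21 ± 0.095 (SE, adjusted p = 0.328). All 4 of its probe sets lay lower, by -0.29 to -0.18.

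Ndufs1, the largest core subunit and a carrier of iron-sulfur clusters, ran from 8.68 to 9.12 (median 8.83) in ISCL4 mice and from 8.88 to 9.25 (median 9.04) in FVB-like mice. In 7 of 8 ISCL4 mice it lay below the FVB-like median, at a difference of -0.20 ± 0.069 (SE, adjusted p = 0.207). Of its 19 probe sets, 17 lay lower, 8 of the 19 at an unadjusted p under 0.05, and the median over the probe sets differed by -0.10. Ndufa7, an accessory subunit with 1 probe set, differed by -0.19 ± 0.14 (SE) and its ISCL4 values of 6.72 to 7.26 all lay within the FVB-like range of 6.54 to 7.67.

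Ndufa13, known also as GRIM-19, is named here after its values were seen, because the groups were tight. It ran from 9.48 to 9.63 in ISCL4 mice and from 9.49 to 9.76 in FVB-like mice, and all 8 ISCL4 mice lay below the FVB-like median of 9.65. The difference was -0.09 ± 0.034 (SE, adjusted p = 0.245). The third chromosome 15 subunit of the set besides Ndufa6 and Cyc1, Ndufb9, differed by -0.06 ± 0.036 (SE). The remaining 19 complex I subunits, core subunits such as Ndufs7, Ndufs8, Ndufv1 and Ndufv2 among them, lay between -0.16 and 0.07.

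Complex II, succinate dehydrogenase, which also serves the citric acid cycle, had no call and small differences. Sdha, the flavoprotein, ran from 10.74 to 11.26 in ISCL4 mice (median 11.01) and from 10.73 to 11.36 in FVB-like mice (median 11.00), nearly the same span, and differed by -0.01 ± 0.031 (SE). Sdhc, a membrane anchor, ran from 9.06 to 9.56 (median 9.33) against 9.16 to 9.76 (median 9.38) and differed by -0.09 ± 0.037 (SE, unadjusted p = 0.035, limma adjusted p = 0.308). The iron-sulfur subunit Sdhb differed by -0.08 ± 0.055 (SE) and the other anchor, Sdhd, by 0.01 ± 0.053 (SE). The 4 subunits had overlapping groups, 3 of 4 lay below 0 and the median was -0.04 (-0.02 after quantile normalization, with 2 below 0, and -0.03 without ISCL4 replicate 5).

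Complex III, the cytochrome bc1 complex, had a median of -0.10 over 6 genes, which was -0.05 without ISCL4 replicate 6 and -0.07 after quantile normalization, and 3 of the 6 had an unadjusted p under 0.05 without passing adjustment. Uqcrq, a small subunit next to cytochrome b, ran from 8.26 to 8.82 (median 8.41) in ISCL4 mice and from 8.49 to 8.96 (median 8.78) in FVB-like mice. In 7 of 8 ISCL4 mice it lay below the FVB-like median, and the difference was -0.28 ± 0.080 (SE, limma adjusted p = 0.138). Without ISCL4 replicate 1 the difference was -0.35 and Uqcrq was called (adjusted p = 0.0133).

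In Uqcrq the largest difference was that of the dimmest probe set. Probe set 5514695, at a mean signal of 4.11, differed by -1.12 ± 0.38 (SE). The 4 brighter probe sets, at signals of 7.08 to 10.96, differed by -0.12 to -0.03, and the median over all 5 differed by -0.04. No detection call was used, so a signal this low can be background.

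Uqcrc2, one of the core proteins of complex III, had differences below 0 in nearly all of its probe sets. It ran from 11.16 to 11.60 (median 11.35) in ISCL4 mice and from 11.27 to 11.79 (median 11.44) in FVB-like mice, with 15 of 16 probe sets lower. The groups overlapped and the difference was -0.12 ± 0.052 (SE, adjusted p = 0.310). Cyc1, cytochrome c1, encoded on chromosome 15, ran from 9.52 to 9.75 (median 9.60) against 9.57 to 9.75 (median 9.68) and differed by -0.07 ± 0.034 (SE, adjusted p = 0.339). Its probe sets were split, 6 higher and 5 lower.

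Of the remaining complex III genes, Uqcr10 lay below 0 and the others did not. Uqcr10, a small subunit, differed by -0.16 ± 0.13 (SE), with ISCL4 replicate 6 at 8.67 far below the other ISCL4 mice at 9.41 to 9.76. The partner core protein Uqcrc1 differed by 0.02 ± 0.036 (SE) and the Rieske iron-sulfur protein Uqcrfs1 by 0.00 ± 0.075 (SE).

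Complex IV, cytochrome c oxidase, had 7 of 10 genes below 0, a median of -0.03 and no call. After quantile normalization 5 of 10 lay below 0 with a median of 0.00, and the median was -0.02 without ISCL4 replicate 8 or without FVB-like replicate 7. Cox7a2, the widely expressed form of subunit 7a, ran from 7.67 to 8.80 (median 8.36) in ISCL4 mice and from 7.89 to 9.44 (median 8.67) in FVB-like mice. The ranges overlapped widely, although 7 of 8 ISCL4 mice lay below the FVB-like median, and the difference was -0.35 ± 0.13 (SE, adjusted p = 0.253). It was -0.13 in array set A and -0.58 in set B. As in Uqcrq, the dimmest probe set differed most: probe set 4716310, at a signal of 5.11, differed by -0.88 ± 0.38 (SE), and the others, at 9.17 and 11.22, by -0.11 and -0.07.

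No tissue form of a complex IV subunit was called. Cox4i1, the general form of subunit 4, differed by 0.00 ± 0.044 (SE), and Cox4i2, the form known from lung and hypoxia, by 0.01 ± 0.071 (SE). Cox6a1, the general form of subunit 6a, ran from 11.79 to 12.15 (median 12.02) in ISCL4 mice and from 11.91 to 12.19 (median 12.02) in FVB-like mice, and differed by -0.05 ± 0.045 (SE). The heart and muscle form Cox6a2 differed by -0.09 ± 0.10 (SE), and the muscle form Cox8b by 0.00 ± 0.17 (SE, 95% interval -0.36 to 0.36).

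Signals of different probe sets cannot be ranked against each other, so no isoform is called the more abundant here. Cox6b1 differed by -0.09 ± 0.094 (SE). Cox7b2, the highest of complex IV at 0.14 ± 0.11 (SE), had a mean signal of 3.73, at the 3.57 percentile of all features, so its value may be background. The remaining 2 genes, Cox5a and Cox7b, differed by -0.02 and -0.06.

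Complex V, the ATP synthase, had 6 of 8 genes below 0 and a median of -0.04. After quantile normalization 4 of 8 lay below 0 with a median of -0.02, and the median was -0.02 without FVB-like replicate 7 and -0.03 without FVB-like replicate 8. Atp5g3, a gene for the membrane ring subunit c, ran from 10.26 to 10.52 (median 10.44) in ISCL4 mice and from 10.38 to 10.72 (median 10.51) in FVB-like mice. In 7 of 8 ISCL4 mice it lay below the FVB-like median, and the difference was -0.12 ± 0.043 (SE, adjusted p = 0.237). Atp5a1, the alpha subunit of the catalytic head, differed by -0.08 ± 0.049 (SE) with 13 of 15 probe sets lower, and ran from 10.91 to 11.61 against 11.02 to 11.79.

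The catalytic beta subunit Atp5b differed by -0.01 ± 0.033 (SE), and Atp5d, the delta subunit, differed by -0.03 ± 0.027 (SE). Atp5mpl, a small membrane subunit, differed by -0.10 ± 0.11 (SE), and Atp5pb, the stator subunit b, by -0.06 ± 0.070 (SE). Atp5e, the epsilon subunit, and Atp5j2, the membrane subunit f, lay above 0 by 0.08 ± 0.073 and 0.03 ± 0.11 (SE).

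No subunit on the Sicd2 chromosome was called, and 3 genes are too few to show a call rate. The 3 genes of chromosome 15, Ndufa6, Ndufb9 and Cyc1, all lay below 0 with a median of -0.07 (-0.05 after quantile normalization). Ndufa6 and Cyc1 had an unadjusted limma p under 0.05, as had 31 lower features of the 575 with 1 symbol on chromosome 15. Of those 575, 44.3% lay below 0, with a median of 0.01. The 50 subunits of chromosomes other than 15 and 18 had a median of -0.03, with 34 below 0. The 7 features with more than 1 symbol lay between -0.15 and 0.02, with 6 below 0 and no call. Cox6c, also on chromosome 15, was the lowest of these (limma adjusted p = 0.310).

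The exon-level data had a similar lean towards lower values with 1 call, in Ndufa2. Of the 328 probe sets, 215 lay below 0 (65.5% against 48.9% of all probe sets) with a median of -0.04. After quantile normalization of the exon values 203 did (61.9% against 49.1%), with a median of -0.03. At an unadjusted p under 0.05 there were 25 lower probe sets (all probe sets: 5.07%) and 7 higher ones (all: 5.16%), together 32 of the 328, where 10.2% of all probe sets passed. With the median of the probe sets as each gene's value, 0 of 55 genes were called by limma (all genes: 0.057%), 8 had an unadjusted p under 0.05 (all genes: 11.4%) and 35 lay below 0. The sign differed from that at gene level in 7 genes.

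A probe set's departure from the rest of its own gene was tested for 277 probe sets in 38 of the genes. Probe sets under the 25th percentile of signal were left out first, among them the dimmest of Uqcrq and of Cox7a2. Cox7a2 then held too few probe sets to be tested. None of the 277 was called by limma (all probe sets tested: 0.0303%), and 25 had an unadjusted p under 0.05 (9.03% against 9.60%). The lowest adjusted p was 0.415. These values do not cover the dim probe sets. When the filter on dim features was dropped, no subunit probe set was called either.

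**Figure D3:**
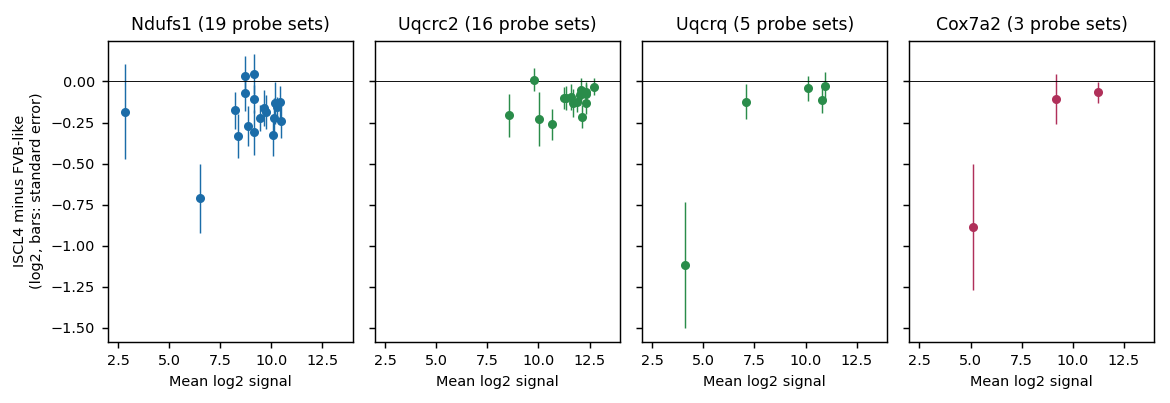
Difference of each exon probe set (log2, bars: standard error) against its mean log2 signal for Ndufs1, Uqcrc2, Uqcrq and Cox7a2. In Ndufs1 and Uqcrc2 17 of 19 and 15 of 16 probe sets lie below 0, while in Uqcrq and Cox7a2 the lowest value, -1.12 and -0.88, belongs to the dimmest probe set.

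The lean towards lower values in the deposited gene-level values was seen mainly in array set B. In set A 27 of 55 subunits lay below 0 with a median of 0.00, and in set B 43 of 55 did, with a median of -0.08. Over all features the medians were 0.01 and 0.00, with 47.7% and 49.8% below 0. Only 29 subunits had the same sign in both sets, 22 lower and 7 higher, the latter including Ndufa2, Ndufb11 and the feature annotated as Ndufa12. The difference between the sets was negative for 42 subunits (53.4% of all features), but the limma interaction of group and set called none (all features: 0.00597%). It had an unadjusted p under 0.05 in 3 subunits (all features: 6.45%), and the lowest adjusted p was 0.665.

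**Figure D4:**
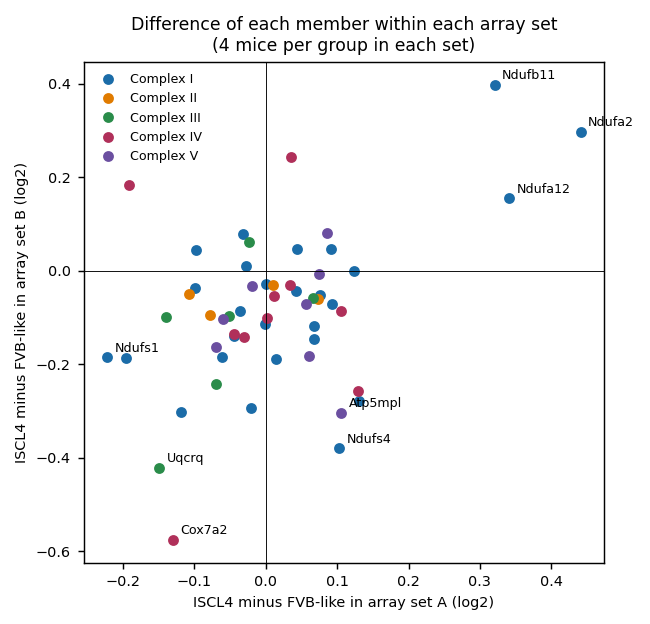
Difference between ISCL4 and FVB-like mice for each subunit in array set A (x) and array set B (y), in log2 signal, 4 mice per group in each set. In set B 43 of 55 points lie below 0 and in set A 27 do. Ndufa2, Ndufb11 and the feature annotated as Ndufa12 lie above 0 in both.

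The array sets themselves differed more than the groups did. Set B against set A was called in 30 subunits, 20 higher in B and 10 lower, and in 46.4% of all features (23.9% higher, 22.4% lower). The difference between sets was larger in size than that between groups for 45 of 55 subunits, with medians of 0.168 and 0.068. Sdha, for example, was 0.47 higher in set B and Atp5a1 0.54 higher. The group SDs quoted above contain this shift, whereas the standard errors do not.

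Mouse by mouse, the complexes moved by small fractions of a log2 unit. With each gene centred on its 16-mouse mean, the mean of all 55 in array set A ran from -0.08 to 0.03 in FVB-like mice and from -0.06 to 0.02 in ISCL4 mice. In set B it ran from 0.02 to 0.15 in FVB-like mice and from -0.05 to 0.05 in ISCL4 mice. FVB-like replicate 7 was the highest mouse, and the groups overlapped in both sets. In set B the groups did not overlap in complex V, at 0.09 to 0.24 in FVB-like and 0.06 to 0.08 in ISCL4 mice. In complex IV they lay narrowly apart, at 0.024 to 0.095 and -0.171 to 0.020. Both gaps are of 4 against 4 mice in the deposited values, were not tested and have no share over all features beside them. After quantile normalization 5 of 10 complex IV genes and 4 of 8 complex V genes lay below 0 over both sets. In set A the groups overlapped in all 5 complexes, and in complex V the ISCL4 mean was the higher, -0.10 against -0.13.

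**Figure D5:**
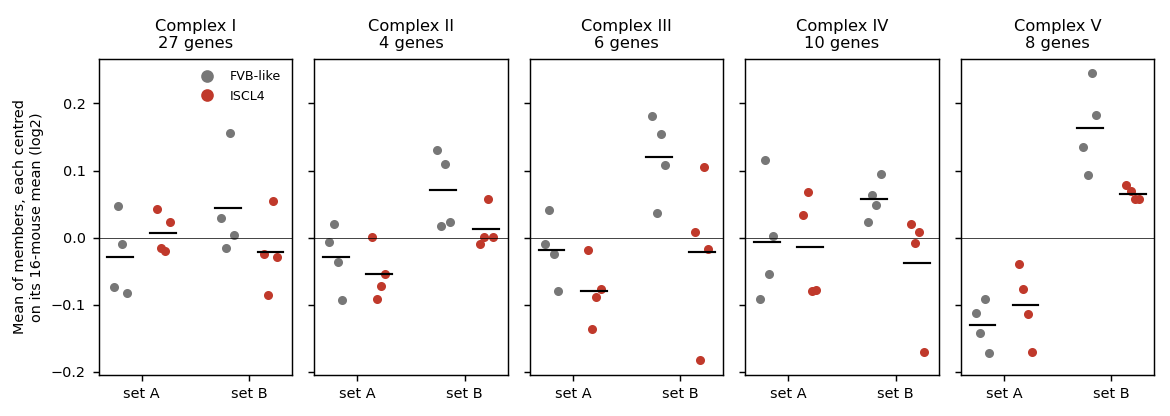
Mean over the subunits of each complex per mouse, each gene centred on its 16-mouse mean (log2), by group and array set, with the group mean as a line. The largest shift is between the array sets in complex V. In set B the 4 FVB-like means of complex V, 0.09 to 0.24, lie narrowly above the 4 ISCL4 means in the deposited values, which was not tested.

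The subunits also varied together from mouse to mouse, only weakly. After removing group and array set, the median pairwise correlation over 1485 pairs was 0.14 with 66.6% of pairs above 0, as a description over the same 16 arrays. In a regular sample of 3351 gene-level features the median was 0.00 with 49.8% above 0. Within complex I the median was 0.17 and within complex V 0.16, against 0.07 in complex IV, 0.08 in complex III and -0.05 in complex II.

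Genes that build or feed the chain showed no call in any list. Of 38 features for assembly factors 18 lay above 0 and 20 below, with a median of -0.01, and 21 above and 17 below after quantile normalization. Surf1, needed to assemble complex IV, differed by -0.10, and Bcs1l, which inserts the Rieske protein, by 0.09 (limma adjusted p = 0.345 and 0.351). Tmem126b and Uqcc2, assembly factors of complexes I and III, differed by -0.11 and -0.17. Of 5 related genes whose symbols fall outside the rule, all lay below 0 (4 of 5 after quantile normalization), and Dmac1, a factor for the distal arm of complex I, was the lowest at -0.21 ± 0.069 (SE, adjusted p = 0.196).

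Regulators of mitochondrial biogenesis leaned the other way, 5 of 16 below 0 and 11 above with a median of 0.04, where 47.9% of all features lay below 0. Their median signal lay at the 55.9 percentile, dimmer than the subunits at 86.1. The 4 with the smallest p were Twnk, the mitochondrial DNA helicase, at 0.16, Polg, its DNA polymerase, at 0.12, the coactivator Pprc1 at 0.11 and the mitochondrial RNA polymerase Polrmt at 0.09. Their unadjusted limma p were under 0.05 (all features, higher: 7.51%) and the lowest adjusted p was 0.162. In the citric acid cycle list 11 of 14 lay below 0 with a median of -0.03, but 8 of 14 after quantile normalization, with a median of -0.01. The smallest p belonged to Dld at -0.23 ± 0.078 (SE, adjusted p = 0.204) and Dlat at -0.10 (adjusted p = 0.245), both subunits of the pyruvate dehydrogenase complex, ahead of Sucla2 at -0.14 and Idh3a at -0.11.

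Of 12 mitochondrial carriers and channels 10 lay below 0 with a median of -0.06 (9 after quantile normalization), and Vdac3, an outer membrane channel, differed by -0.15. Electron carriers and coenzyme Q synthesis were split, 7 above and 6 below 0 (8 and 5 after quantile normalization), with Coq6, a hydroxylase of the coenzyme Q pathway, at 0.17 ± 0.053 (SE, adjusted p = 0.179). The mitochondrial ribosome had 39 of 69 features below 0 and a median of -0.02, where 5 lower and 1 higher had an unadjusted p under 0.05.

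Cell type markers were set beside these values, since in whole tissue fewer cells of a type and less RNA per cell cannot be told apart. Neuronal markers had a median signal at the 98.8 percentile, and their mean level ran from 11.48 to 11.63 in ISCL4 and from 11.53 to 11.59 in FVB-like mice. None of the 7 was called, and 3 had an unadjusted p under 0.05, Nefl at 0.12, Nefm at 0.15 and Stmn2 at -0.125. The mean level of hippocampal neuron markers ran from 8.34 to 8.57 against 8.39 to 8.51. Oligodendrocyte markers lay lower in 10 of 11 genes, with a median of -0.25, and their mean level ran from 9.16 to 9.75 in ISCL4 and from 9.47 to 9.96 in FVB-like mice. Of these, 8 had an unadjusted p under 0.05, and the lowest limma adjusted p was 0.0967, for Mog, a myelin protein.

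Other marker lists were split or leaned without a call. The 6 parvalbumin interneuron features, of 5 genes, all lay above 0 with a median of 0.13. They ran from 0.013 for Gad2 and 0.025 for Gad1 to 0.191 for Pvalb. Markers of meninges (8 of 8), choroid plexus (6 of 6) and striatum (6 of 6) lay below 0, with medians of -0.12, -0.18 and -0.18, and FVB-like replicate 2 had the highest striatal level, 9.45. Medians were 0.00 in astrocytes (0.03 after quantile normalization), 0.07 in microglia and -0.01 in endothelial cells. The part of these markers in the subunit differences was not tested.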

How the data were processed

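Hippocampal RNA of 16 mice was measured on exon arrays, 1 array per mouse, and each array appears among the 32 samples at gene and at exon level. The deposited values are log2 signals, for which the submitters' processing notes name RMA, Partek 6.6 and build mm9, without giving their roles. Array medians lay within 7.29 to 7.34 (gene level) and 7.74 to 7.78 (exon level), and no arrays held identical values. The number of arrays limits the precision, and no detection call was used. Signal ranks mark dim and bright features only and do not rank the abundance of genes or probe sets.

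Symbols came from the platform annotation, updated through RefSeq (GRCm38.p6), which matched all 14996 single gene-level symbols. That build differs from mm9, so it gave names, chromosomes and promoter windows, and no position of an array feature. No protein sequence was used.

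Group differences were fitted with limma 3.58.1 (lmFit and eBayes, R 4.3.3) over all features with array set as a covariate, and p values were Benjamini-Hochberg adjusted over all features of a level. The median of a gene's probe sets and each probe set's departure from its gene (at least 3 probe sets per gene, those under the 25th percentile of signal left out) were fitted likewise. Replicates are separate mice. Mice of the same number correlated in their deviations from the group means at 0.296 to 0.487 in all 8 pairs, and at -0.0513 to 0.246 once array set was removed. Other ISCL4 mice of the same set then had median correlations of -0.0887 to 0.0127. The same-numbered ISCL4 mouse was the best match within its set, except for replicates 3 and 8. The numbers were therefore treated as possible pairs, and the fit with the number as a block is given where it changes a call. Standard errors are from the fit without the block.

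The genes, gene lists, markers and tests were chosen with earlier results of these data known. Named genes were those called, the 3 largest increases and decreases per complex, subunits on chromosomes 15 and 18, tissue isoforms and up to 4 genes of smallest p per pathway list. Others are named for their role. Of the isoforms in the rule, Cox7a1, Cox8a, Atp5g1, Atp5g2, Ndufa4 and Ndufa4l2 had no feature among the 55. On simulated data with known changes, the gene-level fit over 16755 features recovered 52% of 50 genes changed by 1.2-fold and 88% at 1.5-fold, with 13 false calls. The same simulation also changed 50 genes by 2-fold and 50 by 3-fold, all of them recovered. So many true changes ease the adjusted threshold, so recovery may be lower in the real data, where 49 features were called. The exon-level fit over 188590 probe sets recovered 0% and 46%, with 6 false calls. Tables and figures were made with pandas 2.3.3 and matplotlib 3.10.9. Alternatives covered the block, the covariate, normalization, a filter on dim features, the variance model, single array sets, symbols and leaving out each mouse.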

Additional observations from a re-analysis of the deposited data

Results flagged for a closer look

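In 122 groups of 8 values, Dixon's test at the 95% level marked 3 mice as standing apart from their group, and chance marks about 1 in 20 groups. FVB-like replicate 8 had Ndufa5, an accessory subunit of complex I, at 7.522, below the other FVB-like mice at 7.824 to 8.088. ISCL4 replicate 7 had Ndufb8, another accessory subunit of complex I, at 9.016, above the other ISCL4 mice at 8.752 to 8.843. ISCL4 replicate 6 had the complex III subunit Uqcr10 at 8.667, below the other ISCL4 mice at 9.408 to 9.762. The marked values belong to 3 different mice, and none of these genes was called between the groups.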

How the results depend on the processing

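At gene level the count of called subunits was 1 as reported, and it stayed at 1 under quantile normalization, median centring, the filter on dim features, limma with trend and robust, and platform symbols. It fell to 0 with the replicate block, without the array set covariate, in array set A alone and in array set B alone, and leaving out 1 mouse gave 0 to 2. At exon level the 1 called probe set fell to 0 under the same 4 settings, and leaving out 1 mouse gave 0 to 1. The replicate block changed no other call among the subunits. Over all features the number called was 49 as reported, 18 with the block, 15 without the covariate, 84 without dim features, 102 with trend and robust, 0 in set A and 5 in set B. Leaving out 1 mouse gave 19 (without ISCL4 replicate 8) to 66 (without FVB-like replicate 8), and 31 or fewer without FVB-like replicate 2, 3, 5 or 7 or ISCL4 replicate 2, 3, 6, 7 or 8. The median over all subunits, -0.0382 as reported, was -0.085 in set B alone, and that of complex V, -0.0436 as reported, was 0.0587 in set A alone. Quantile normalization took the median of all subunits to -0.01, complex I to 0.0025, complex II to -0.0229, complex III to -0.0661, complex IV to -0.0031 and complex V to -0.0183. Leaving out 1 mouse gave -0.0472 to -0.0221 for all subunits, the latter without FVB-like replicate 7. Each set alone holds 4 mice per group, and the cause of the other changes was not tested. Among 29 named but uncalled subunits, 44 of 695 alternative values changed sign, in 10 genes, and 1 became called, Uqcrq without ISCL4 replicate 1.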
